A study of Mus musculus with 3 samples.

Results

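The cells described here are Nos1 neurons of the early postnatal mouse neocortex (NCx) that carried Dach1 mRNA and no Lypd1 mRNA. A cell was taken from the P1 or P5 library when it had over 700 genes, under 10% of its UMIs (unique molecular identifiers, 1 per captured mRNA molecule) from mitochondrial genes, at least 1 UMI of Nos1, at least 1 UMI of Dach1 and 0 UMIs of Lypd1. The rule found 125 cells, 98 at P1 and 27 at P5, of the 12324 cells of the series and of the 5481 cells of both postnatal libraries that passed the limits on genes and mitochondrial UMIs. They are called Dach1 cells below and were compared with Lypd1 cells, the Nos1 cells of the same library with Lypd1 and no Dach1, of which there were 55 at P1 and 221 at P5. Nos1, Dach1 and Lypd1 chose the cells, so their values are descriptions and support nothing.

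All libraries were made from SstCre/+;RCEfl/+ mice, in which Cre is expressed from the Sst gene and switches on a green fluorescent reporter in cells that have ever expressed Sst. Green cells were sorted from pooled NCx tissue (6 embryos for the E16.5 library, 3 pups for each postnatal one) and loaded as 1 droplet library per stage. With 1 library per stage there was no replicate, no difference could be tested against the spread between animals, and stage and library cannot be told apart. Every interval given is a 95% interval for counting error only: exact Poisson for a level, exact Clopper-Pearson for a share of cells, and exact conditional binomial for a fold.

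Most cortical neurons that make somatostatin (Sst) are local interneurons, Martinotti cells (MCs) and non-Martinotti cells (nMCs). A sparse group, the long-range projection (LRP) neurons, sends GABAergic axons over long distances and is known for strong expression of Nos1, the neuronal nitric oxide synthase, together with neuropeptide Y (Npy) and the membrane protein gene Chodl. Dach1 encodes a transcriptional cofactor homologous to Drosophila dachshund, and Lypd1 encodes a membrane-anchored protein of the Ly6 family that binds nicotinic acetylcholine receptors. The comparison asks in which other genes the Nos1 cells that carry these markers differ.

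The Dach1 cells held 382639 UMIs at P1 and 88570 at P5 outside the mitochondrial, ribosomal and Y-linked genes, and levels are given as CPM, a gene's UMIs scaled to a common total of these UMIs. The Lypd1 cells held 283284 and 755014. The Dach1 cells were the shallower cells in both libraries, with a median of 3955 UMIs against 5059 at P1 and 2667 against 3370 at P5. A gene with 0 UMIs in all Dach1 cells could still be present at up to the level of 3 counts, 7.84 CPM at P1 and 33.9 CPM at P5, so low levels are far less certain at P5. Of the cell barcodes, 6 occurred in both postnatal libraries, and none of them belonged to a Dach1 cell. A Y-linked UMI without Xist was found in 63 of 98 Dach1 cells at P1 and 8 of 27 at P5, and Xist without a Y-linked UMI in 0 of 98 (which allows up to 3.69%) and 0 of 27 (up to 12.8%). The rarity of Xist was shared by the other cells of both libraries. It was found without a Y-linked UMI in 0 of 55 and 1 of 221 Lypd1 cells, and in 1 of 2067 and 1 of 2433 cells without Nos1.

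Dach1 marked a share of the Nos1 cells that was smaller in the later library, while the share with Lypd1 was larger. Dach1 (ENSMUSG00000055639, GRCm38 chromosome 14, 97786853 to 98169765, minus strand) was detected in 101 of 434 Nos1 cells at P1 (23.3%, interval 19.4 to 27.5) and in 42 of 547 at P5 (7.68%, 5.59 to 10.2). Lypd1 (ENSMUSG00000026344, chromosome 1, 125867622 to 125913101, minus strand) was detected in 13.4% (10.3 to 16.9) and 43.1% (38.9 to 47.4). With every cell thinned to 1500 UMIs and shallower cells left out, the shares were 16.6% and 5.13% for Dach1 and 7.17% and 29.8% for Lypd1. As the background share, among cells without a Nos1 UMI, whose median depth was 3191 UMIs at P1 and 4245 at P5, Dach1 was found in 1.06% (0.668 to 1.61) and 0.781% (0.471 to 1.22). Of all kept cells with Dach1, 101 of 123 at P1 and 42 of 61 at P5 also had Nos1 (ENSMUSG00000029361, chromosome 5, 117781032 to 117958840, plus strand).

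**Figure D1:**
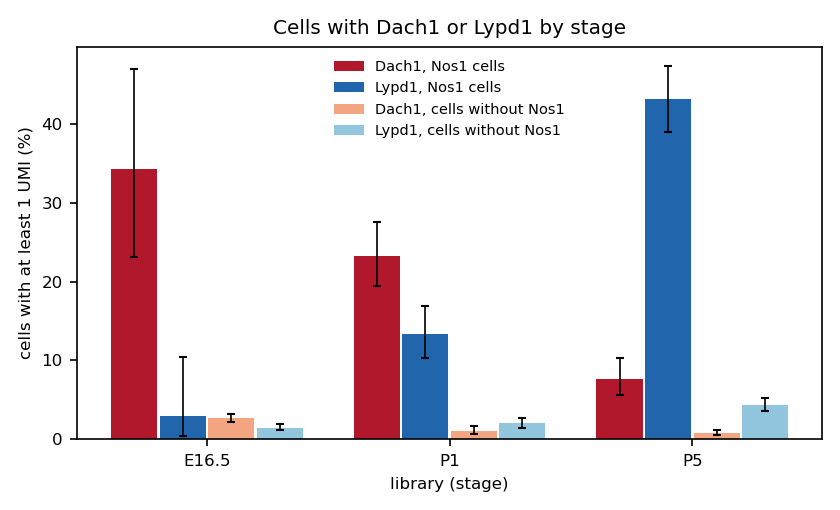
Percent of cells (vertical axis) with at least 1 UMI of Dach1 or Lypd1, among Nos1 cells and among cells without Nos1, in each library (horizontal axis), with exact 95% Clopper-Pearson intervals as error bars. Among Nos1 cells Dach1 was at 34.3%, 23.3% and 7.68% from E16.5 to P5 and Lypd1 at 2.99%, 13.4% and 43.1%, while every bar for cells without Nos1 was at 4.32% or lower.

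How firmly a cell was placed differed between the libraries. At P1, 57 of the 98 Dach1 cells had exactly 1 UMI of Dach1, 22 had 2, and 19 had 3 or more, with a maximum of 10. At P5, 18 of the 27 had exactly 1, and the maximum was 3. Cells just outside the rule were those with Lypd1 as well. At P1, 3 of 101 Nos1 cells with Dach1 also had Lypd1 (2.97%, 0.617 to 8.44), against 16.5% of the Nos1 cells without Dach1. At P5, 15 of 33 Nos1 cells with exactly 1 Dach1 UMI had Lypd1 (45.5%, 28.1 to 63.6), close to the 43.8% (39.4 to 48.2) of Nos1 cells without Dach1, whereas 0 of 9 with 2 or more did (up to 33.6%). A single UMI thus does not by itself place a P5 cell, and how many of the 18 such Dach1 cells were placed by free RNA was not tested. The P5 cells are also described below by whether they had 1 or more UMIs of Dach1. On the other limits, the Dach1 cell with the fewest genes had 725 at P1 and 868 at P5, and 1 P1 cell just under the limit on genes met the rest of the rule. Nos1 itself was not marginal: the Dach1 cells had a median of 12.5 Nos1 UMIs at P1 and 10 at P5, against 10 and 11 in Lypd1 cells and 2.5 and 5 in Nos1 cells with neither gene.

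The label of LRP neurons was checked against genes that the rule did not use, relative to the sorted cells without Nos1. Npy was at 45500 CPM in the Dach1 cells at P1 and 47477 CPM at P5, against 1584 and 1008 CPM in cells without Nos1, and had UMIs in 98 of 98 and 27 of 27 Dach1 cells. Chodl was at 494 (426 to 570) and 373 CPM (256 to 523), against 15.2 and 8.96 CPM. Tacr1, the receptor for substance P, was at 248 and 350 CPM, against 4.98 and 3.33 CPM. These levels stood far above the remaining sorted cells in both libraries. Over cells without Nos1, 130 of 4654 genes (2.79%) were past 2-fold higher in both libraries and 159 (3.42%) past 2-fold lower. By the rule for named genes, the 8 with the largest ratios were Npy, Pcp4, Chodl, Hhip, Tacr1, Ptn, Rarb and Syt6. Pcp4, a small calmodulin regulator, was at 3204 and 7305 CPM against 107 and 420 CPM. The list of 10 MC markers was low in the sum, at 392 and 384 CPM against 1169 and 1707 CPM in cells without Nos1. Etv1 had 0 UMIs in the Dach1 cells of both libraries. Elfn1 was at 47.0 and 56.5 CPM against 294 and 350 CPM, and Reln at 73.2 and 11.3 CPM against 380 and 548 CPM. Cdh13, of the same list, was nearer to the cells without Nos1, at 172 and 248 CPM against 255 and 350 CPM. It held 66 of the 150 UMIs of the list in P1 Dach1 cells and 22 of the 34 in P5 Dach1 cells.

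Of the 15 LRP markers, 1 was 2-fold or more higher in Dach1 than in Lypd1 cells in both libraries and 1 lower. Chodl was at 494 CPM in Dach1 cells and 544 CPM in Lypd1 cells at P1, and at 373 and 595 CPM at P5. The transcription factor Pou3f2 was at 439 and 487 CPM at P1 and at 339 and 352 CPM at P5, a fold of 0.901 (0.715 to 1.14) and 0.961 (0.636 to 1.41). Sox2 was at 570 and 784 CPM at P1 and at 440 and 429 CPM at P5. None of these passed 2-fold in either library. Npy was 1.41-fold (1.37 to 1.45) and 1.09-fold (1.06 to 1.13) higher in Dach1 cells, and Sst 1.77-fold (1.67 to 1.88) and 1.49-fold (1.35 to 1.63). Tacr1 was 1.85-fold (1.26 to 2.77) and 1.94-fold (1.27 to 2.89) higher. Zeb1, a zinc-finger factor, was at 110 and 77.7 CPM at P1 and 90.3 and 64.9 CPM at P5. Over the list of 15 LRP markers the log2 ratios had a median of −0.13 in the P1 library and 0.12 in the P5 library, beside −0.04 and −0.03 over all 5525 genes measured, with Pcp4 past 2-fold higher in both libraries and Pde1a, a calcium-dependent phosphodiesterase, past 2-fold lower.

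A further set of genes did separate the Dach1 cells from the Lypd1 cells in both libraries. A gene was measured when it had at least 20 UMIs over both groups in each library, and was counted when the log2 ratio of CPM + 10 was 1 or more (or −1 or less) at P1 and at P5. Of 5525 genes, 44 (0.796%) were higher in both libraries and 49 (0.887%) lower. Among the same 5525 genes, 125 (2.26%) were higher and 107 (1.94%) lower when P1 was read without P5, and 213 (3.86%) and 436 (7.89%) when P5 was read without P1. At P5 the minimum can be met by Lypd1 cells alone, which held 755014 UMIs against 88570 in Dach1 cells. A gene with few Lypd1 UMIs and 0 Dach1 UMIs then counts as lower, as Dgat2 did with 26 and 0. Lower calls were thus easier to reach than higher ones at P5. Of the 125 genes higher at P1, 44 were past 2-fold higher at P5 (35.2%, beside 3.86% of all genes) and 90 lay on the same side (72.0%, beside 47.4% of all genes), and of the 107 lower genes 49 were past 2-fold lower (45.8%, beside 7.89%) and 82 lay on the same side (76.6%, beside 52.6%). The P1 genes that went past 2-fold the opposite way at P5 numbered 5 and 4. Without cells above 2 times the median UMIs of their library, which were 15 of 98 and 1 of 27 Dach1 cells and 18 of 55 and 9 of 221 Lypd1 cells, 41 genes were higher and 27 lower, 29 and 19 of them among the 44 and 49. The number of genes tested in this setting is not given here, so these counts cannot be read as shares.

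**Figure D2:**
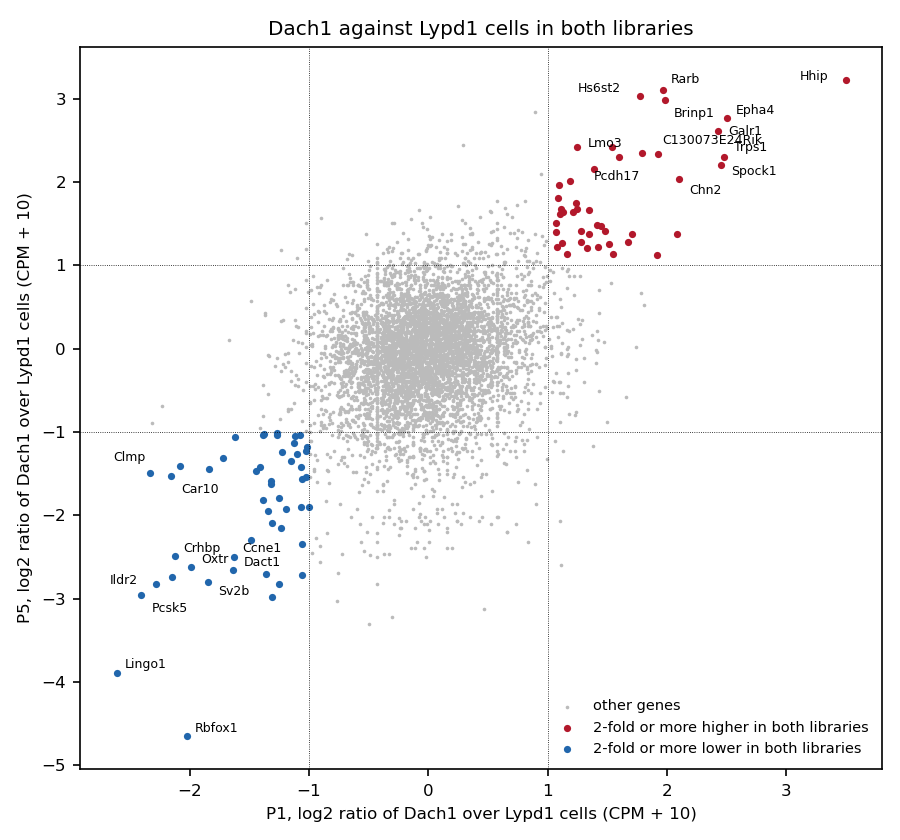
Each point is 1 of 5525 genes, placed by its log2 ratio of Dach1 over Lypd1 cells at P1 (horizontal axis) and at P5 (vertical axis), both on CPM + 10. Dotted lines mark 2-fold, red points are the 44 genes higher and blue points the 49 genes lower past 2-fold in both libraries, and Hhip and Rbfox1 lie at the upper right and lower left ends of the cloud.

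Hhip led the genes higher in Dach1 cells. It encodes a membrane glycoprotein that binds hedgehog ligands and limits their signal (ENSMUSG00000064325, chromosome 8, 79965851 to 80058006, minus strand). It was at 222 CPM (177 to 275) in Dach1 cells and 10.6 CPM (2.18 to 30.9; 3 UMIs) in Lypd1 cells at P1, and at 282 CPM (183 to 417) and 21.2 CPM (12.1 to 34.4) at P5. The fold was 20.98 (6.94 to 104) and 13.3 (6.84 to 26.7). Its UMIs came from 28 of 98 Dach1 cells at P1 and 10 of 27 at P5, against 2 of 55 and 12 of 221 Lypd1 cells. Hhip was near absent from cells without Nos1, at 0.767 and 0.104 CPM, and stood at 28.4 and 47.2 CPM in Nos1 cells with neither Dach1 nor Lypd1. In the sorted cells that had Dach1 and no Nos1, 22 at P1 and 19 at P5, Hhip, Galr1 and Rarb had 0 UMIs in both libraries (intervals up to 32.2 and 49.4 CPM). The rest of the 12 leading higher genes had UMIs there in at least 1 library. Among them, Pcdh17 was at 611 and 549 CPM, C130073E24Rik at 384 and 120 CPM, and Lmo3 at 192 and 161 CPM.

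Receptors and signalling genes followed. Epha4, an ephrin receptor that guides axons (ENSMUSG00000026235, chromosome 1, 77367185 to 77515088, minus strand), was at 567 CPM (494 to 648) in Dach1 and 91.8 CPM (60.0 to 134) in Lypd1 cells at P1, and at 508 (371 to 680) and 66.2 CPM (49.2 to 87.3) at P5. It was found in 81 of 98 and 18 of 27 Dach1 cells. The fold was 6.18 (4.10 to 9.67) and 7.67 (5.01 to 11.7). Galr1, a receptor for the neuropeptide galanin, was at 62.7 CPM (40.2 to 93.3) against 1 UMI at P1 and at 124 CPM (62.0 to 222) against 11.9 CPM (5.45 to 22.6) at P5. Its fold, 17.8 (2.90 to 731) and 10.4 (3.93 to 28.4), was poorly bounded above at P1. Rarb, a nuclear receptor for retinoic acid, was at 180 and 38.8 CPM at P1 and at 305 and 26.5 CPM at P5, a fold of 4.64 (2.44 to 9.73) and 11.5 (6.22 to 21.6). Chn2, a Rac GTPase-activating protein, was 5.61-fold (2.54 to 14.6) and 5.90-fold (2.23 to 14.9) higher. Hs6st2, which sulphates heparan sulphate chains, was 4.04-fold (2.10 to 8.52) and 14.9-fold (5.84 to 41.0) higher.

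Spock1, Pcdh17, Trps1, Lmo3, Brinp1 and C130073E24Rik were the rest of the leading 12. Spock1, a secreted proteoglycan of the testican family, was at 779 CPM (693 to 872) against 134 CPM (94.9 to 184) at P1 and at 452 (323 to 615) against 90.1 CPM (69.9 to 114) at P5. Its UMIs were in 89 of 98 and 21 of 27 Dach1 cells. Pcdh17, a protocadherin, was 3.38-fold (1.95 to 6.22) and 5.196-fold (3.75 to 7.16) higher than in Lypd1 cells. At P1, however, Pcdh17 in Dach1 cells, 191 CPM, was below the 279 CPM of Nos1 cells with neither gene and the 435 CPM of cells without Nos1. Against the Nos1 cells with neither gene as reference, 6 of the 12 leading higher genes stayed under 2-fold in the library nearer 0: Pcdh17, with a log2 ratio of −0.53, Lmo3, Chn2, Spock1, Brinp1 and Trps1, with 0.45, 0.49, 0.87, 0.93 and 0.998. Of the 12 leading lower genes this held for Ccne1, at −0.58. The LRP markers summed to 31062 CPM in this reference against 65819 CPM in Dach1 cells at P1, and to 47592 against 68804 CPM at P5. Ratios over it therefore cannot be read as a contrast with LRP neurons alone, and which cells it held was not tested. Trps1, a GATA-type zinc-finger repressor, was at 105 and 10.6 CPM (3 UMIs) at P1 and at 124 and 17.2 CPM at P5, a fold of 9.87 (3.14 to 49.9) and 7.21 (2.93 to 17.4). Lmo3, a LIM-only transcriptional cofactor, was 3.99-fold (2.19 to 7.86) and 7.31-fold (3.09 to 17.0) higher. Brinp1, a nervous-system gene induced by bone morphogenetic protein and retinoic acid, was 5.63-fold (2.21 to 18.3) and 11.4-fold (5.53 to 23.9) higher. The transcript C130073E24Rik was 4.27-fold (2.53 to 7.62) and 6.49-fold (3.17 to 13.1) higher.

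The leading genes lower in Dach1 cells were of varied roles, and only Sv2b among them was on the list of synaptic genes. Rbfox1, a splicing regulator of neurons (ENSMUSG00000008658, chromosome 16, 5885355 to 7411526, plus strand), was at 60.1 CPM (38.1 to 90.2) in Dach1 cells and 275 CPM (218 to 344) in Lypd1 cells at P1. At P5 it had 0 UMIs in the 27 Dach1 cells and 241 CPM (207 to 279) in Lypd1 cells. The Lypd1 level was 7.12-fold the level of 3 counts. Such a ratio to the level of 3 counts leaves out the counting error of the Lypd1 cells, so it is not a lower bound on the fold. Nos1 cells with neither gene, at 246 and 204 CPM, and cells without Nos1, at 276 and 294 CPM, were at the level of the Lypd1 cells. For Lingo1, a leucine-rich repeat protein of axons and myelin signalling, the Dach1 cells had 3 UMIs (7.84 CPM) against 98.8 CPM at P1. This was lower by 12.6-fold (3.89 to 64.8). At P5 the Dach1 cells had 0 UMIs against 138 CPM, which was 4.07-fold the level of 3 counts.

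Crhbp, Oxtr and Pcsk5 were also among the leading lower genes. Crhbp, the binding protein of corticotropin-releasing hormone, was at 75.8 CPM against 364 CPM at P1 and at 79.0 against 490 CPM at P5, lower by 4.80-fold (3.15 to 7.52) and 6.201-fold (2.98 to 15.5). Oxtr, the oxytocin receptor, had 6 UMIs in 2 of 98 Dach1 cells (15.7 CPM) against 91.8 CPM at P1, and 1 UMI against 121 CPM at P5. Pcsk5, a protease that cleaves precursors of secreted proteins, had 2 UMIs against 70.6 CPM and 0 UMIs against 67.5 CPM. The latter level, of P5 Lypd1 cells, was 1.99-fold the level of 3 counts, which is not a lower bound on the fold. For Crhbp the Nos1 cells with neither gene lay between both groups, at 176 and 267 CPM, and cells without Nos1 were nearer to the Dach1 cells, at 66.3 and 124 CPM. Clmp, an adhesion molecule of the immunoglobulin family, was lower by 5.83-fold (3.51 to 10.2) and 2.98-fold (1.59 to 6.29), and Ildr2, of the same superfamily, by 7.83-fold (3.00 to 25.9) and 12.4-fold (2.18 to 496). A further 4 of the leading genes rested on few UMIs in Dach1 cells: Car10 on 4 and 3, Sv2b, a synaptic vesicle protein, on 4 and 0, Ccne1, cyclin E1, on 7 and 0, and Dact1, a regulator of Wnt signalling, on 17 and 0. For Sv2b the ratio in the library nearer 0 changed sign, to a log2 of 0.50, when cells above 2 times the median UMIs were left out.

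**Figure D3:**
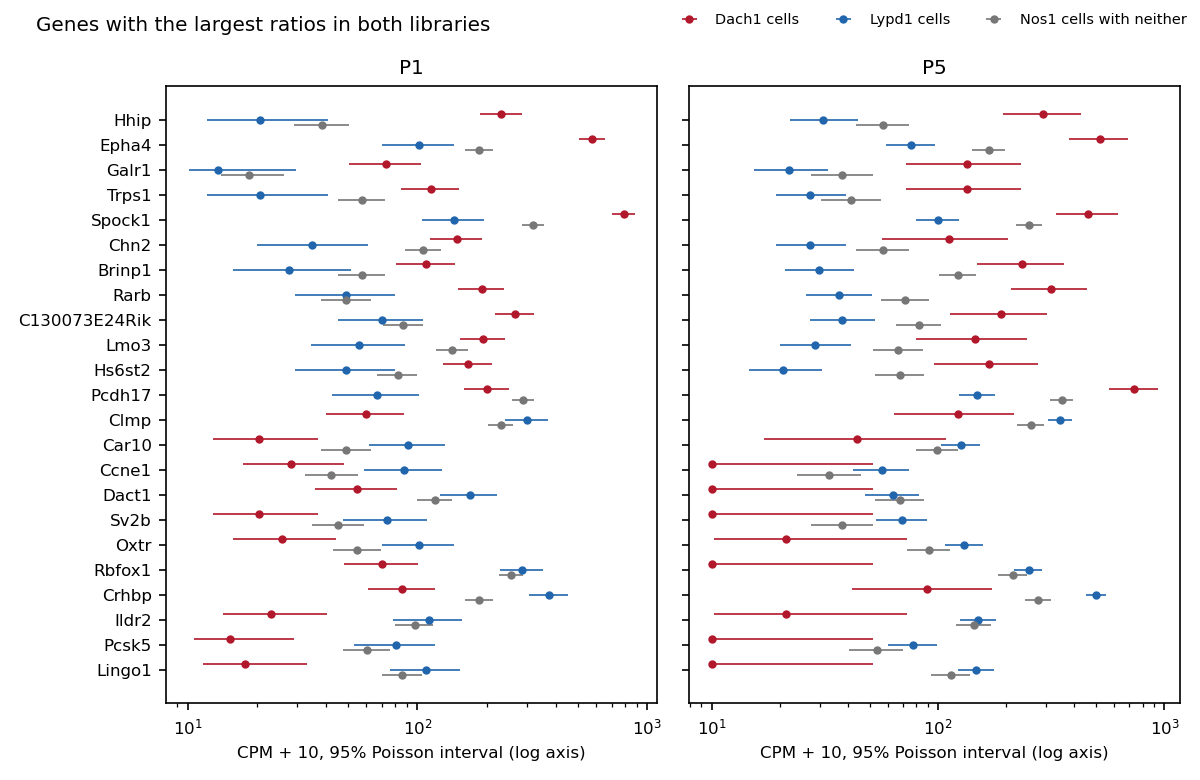
Level of the leading genes named in the text (rows) as CPM + 10 on a horizontal log axis, at P1 (left) and at P5 (right), in Dach1 cells, Lypd1 cells and Nos1 cells with neither gene, with 95% Poisson intervals. The intervals of Dach1 and Lypd1 cells do not overlap for Hhip, Epha4, Spock1 and Rbfox1 in either library, while P5 Dach1 cells at 0 UMIs have intervals up to 41.6 CPM. The genes were chosen by their ratios in these same libraries, so separate intervals are a description and support nothing.

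Read by role, the differences were spread over several gene groups, each described by counts past 2-fold in both libraries beside the 0.796% higher and 0.887% lower of all genes. These lists were chosen with earlier results of these data known. Shares above those of all genes may thus have been favoured in advance and support nothing. Of 13 measured genes of GABAergic neurons of the medial ganglionic eminence (MGE), 1 was higher and 4 lower. Lhx6, the LIM-homeodomain factor of MGE neurons, was the higher one, at 1419 CPM (1302 to 1544) against 526 CPM in Lypd1 cells at P1 and at 1253 (1031 to 1509) against 440 CPM at P5, a fold of 2.70 (2.25 to 3.26) and 2.85 (2.28 to 3.54). The lower ones included the homeobox gene Dlx1 and Gad2, which encodes a GABA-synthesizing enzyme. Gad2 was at 141 against 385 CPM at P1 and at 135 against 502 CPM at P5, lower by 2.73-fold (1.95 to 3.85) and 3.71-fold (2.10 to 7.23). Dlx1 was lower by 2.59-fold (1.88 to 3.599) and 3.16-fold (1.74 to 6.39). Gad1, for the other such enzyme, had a log2 ratio of −0.07 at P1 and −1.19 at P5, and Slc32a1, the vesicular GABA transporter, 0.56 and 0.22, so the GABAergic genes did not all lie on one side. The median log2 ratio of the 13 was −0.15 at P1 and −1.19 at P5.

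Among 37 measured transcription factors of MGE and LRP neurons, 4 were higher (Lhx6, Sox1, Tshz2 and Lmo3) and 3 lower, among them Dlx1. Sox1, a relative of Sox2, was at 504 CPM (436 to 581) against 152 CPM at P1 and at 271 (174 to 403) against 106 CPM at P5, a fold of 3.32 (2.38 to 4.74) and 2.56 (1.55 to 4.08). Tshz2, a zinc-finger homeobox factor, was 2.93-fold (1.86 to 4.80) and 2.97-fold (1.78 to 4.78) higher. Thus Sox1 differed between both kinds of Nos1 cells where Sox2 and Pou3f2 did not pass 2-fold. Of the 6 measured genes of the family list that holds the relatives and partners of Dach1, none passed 2-fold in both libraries. Skil, a Ski-family corepressor, was at 115 and 113 CPM at P1 and 113 and 101 CPM at P5.

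Of 35 measured axon guidance genes, 3 were higher and 2 lower. Beside Epha4, the higher ones were Ntng1, a membrane-anchored netrin, 3.26-fold (1.84 to 6.15) and 6.75-fold (3.50 to 12.9), and Plxna4, a semaphorin coreceptor, 4.01-fold (2.77 to 5.96) and 2.31-fold (1.32 to 3.89). The lower ones were Ephb1, an ephrin receptor of the B class, and Plxna2 (log2 ratios of −1.06 and −1.90). Ephb1 was at 34.0 against 98.8 CPM at P1 and had 0 UMIs against 68.9 CPM at P5. The latter level was 2.03-fold the level of 3 counts, which is not a lower bound on the fold. Receptors of one family thus lay on opposite sides: Epha4 was higher and Ephb1 lower, Plxna4 higher and Plxna2 lower. Adhesion genes did the same, with Cdh11, Pcdh17 and Cntn5 higher and Pcdh9, Pcdh19 and Ncam2 lower of 29 measured. Ncam2 was lower by 3.07-fold (1.90 to 5.07) and 5.49-fold (2.49 to 15.1), and Cntn5 was 6.07-fold (2.40 to 19.7) and 3.41-fold (1.08 to 9.30) higher.

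Of 11 measured receptors for neuromodulators and peptides, Galr1 and Cnr1 were higher and Oxtr was lower. Cnr1, the cannabinoid receptor of the brain, was at 133 against 53.0 CPM at P1 and at 181 against 37.1 CPM at P5, a fold of 2.52 (1.39 to 4.82) and 4.87 (2.46 to 9.32). Unlike Galr1, Cnr1 was highest in cells without Nos1, at 245 and 248 CPM. Growth factor genes were mixed: of 8 measured, Fgf13, an intracellular modulator of sodium channels, was higher by 2.30-fold (1.37 to 4.01) and 4.74-fold (2.34 to 9.23), Igf1 lower by 3.99-fold (2.46 to 6.72) and 2.88-fold (1.49 to 6.38), and Ntrk2, the receptor of brain-derived neurotrophic factor, lower by 2.38-fold (1.91 to 2.97) and 2.40-fold (1.64 to 3.65). Of 15 neuropeptide and peptide-processing genes 1 was lower (Crhbp), of 13 genes of nitric oxide and cGMP signalling 1 was lower (Pde1a), and of 4 nicotinic and Ly6 genes 1 was lower (Lypd6b, a relative of Lypd1, with log2 ratios of −1.34 and −1.95). Gucy1a1, a subunit of the nitric oxide receptor, was lower by 1.88-fold (1.41 to 2.51) and 1.93-fold (1.22 to 3.25) without reaching 2-fold.

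Genes of neuronal immaturity and synaptic function came next. Of 19 measured genes of migrating and immature neurons, Dlx1 was lower in both libraries and none higher, and Dcx, a microtubule protein of young neurons, was at 659 against 1211 CPM at P1 and at 395 against 666 CPM at P5. Of 30 synaptic genes, Sv2b and Syt1 were lower and none higher. Syt1, the calcium sensor of vesicle release, was lower by 2.09-fold (1.86 to 2.37) and 2.96-fold (2.49 to 3.55). Among 41 ion channel genes and 29 GABA and glutamate receptor genes, none passed 2-fold in both libraries in either direction. The same held for 16 endoplasmic reticulum and heat-shock stress genes and for 3 immediate-early genes. Of 107 measured genes that the study listed as enriched in LRP neurons of these libraries, a list that is not independent of them, 8 were higher (Epha4, Pcp4, Sox1, Tshz2, Csmd2, Ntng1, Hap1 and Plcb4) and 5 lower (Crhbp, Pde1a, Ncam2, Cnih3 and Phlda1), with a median log2 ratio of 0.14 and −0.02.

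Genes of other cell types were scarce in the Dach1 cells. Of 12 excitatory neuron markers, 9 had 0 UMIs at P1 and 12 at P5, with 3 UMIs in all. In Lypd1 cells at P1, 54 UMIs of these markers came from 1 cell. Of 12 microglial and vascular markers 11 were at 0 in each library, with 1 UMI each, and haemoglobin genes had 0 and 1 UMI. Of 12 glial markers 8 and 9 were at 0, and the summed level was 78.4 CPM at P1 and 169 CPM at P5, against 67.1 and 53.0 CPM in Lypd1 cells. At P5, 13 of the 15 glial UMIs were of Mbp, the myelin basic protein, at 147 CPM (78.2 to 251) against 45.0 CPM. The part of Mbp in the other differences was not tested. Markers of caudal-eminence and Meis2 cells summed to 254 CPM in P1 Dach1 cells against 84.7 CPM in Lypd1 cells and to 22.6 against 62.3 CPM at P5, beside 634 and 781 CPM in cells without Nos1, and 1 P1 Dach1 cell held 47 of its group's 97 UMIs. Meis2 itself had 16 UMIs in P1 Dach1 cells and 0 in P5 Dach1 cells and in the Lypd1 cells of both libraries. The part of these markers in the other differences was not tested. Of 3 measured MC markers, 3 nMC markers and 1 marker of caudal-eminence and Meis2 cells, none passed 2-fold in both libraries in one direction.

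Because the P5 Dach1 cells were few and mostly rested on 1 Dach1 UMI, the gene sets chosen at P1 were read in the P5 cells. The 125 genes higher at P1 made up 2.43% (2.32 to 2.53) of the UMIs of P5 Dach1 cells, 1.10% (1.08 to 1.13) of those of Lypd1 cells, and 1.38% (1.36 to 1.41) of those of Nos1 cells with neither gene. The 107 genes lower at P1 made up 0.845% (0.785 to 0.907), 1.85% (1.82 to 1.88) and 1.48% (1.45 to 1.51). Both sets thus kept their direction at P5 in the sum. Single genes weighed heavily in these sums. Pcp4 held 647 of the 2149 UMIs of the higher set in Dach1 cells and 2111 of 8325 in Lypd1 cells. Syt1 held 132 of the 748 UMIs of the lower set in Dach1 cells and 3331 of 13983 in Lypd1 cells. The sums and the values per cell were not taken without these genes. Per cell, the percent of UMIs from the higher set minus that from the lower set ran from −0.914 to 3.64 in the 27 Dach1 cells with a median of 1.77, and from −2.36 to 1.63 in the 221 Lypd1 cells with a median of −0.691. The ranges overlapped, and only differences between groups can be read, since the zero of this measure depends on the sizes of both sets.

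Among P5 cells with Dach1, those that also had Lypd1 stood lower than those without. The 9 P5 cells with 2 or more Dach1 UMIs were at 0.530 to 3.64 with a median of 1.99. The 18 with 1 Dach1 UMI were at −0.914 to 2.87 with a median of 1.48. The 15 P5 cells with both Dach1 and Lypd1, which are outside the rule, were at −0.973 to 1.91 with a median of 0, near that of the cells with neither (−0.133). They were also deeper, with a median of 4829 UMIs against 2667 in P5 Dach1 cells. Of these 15 cells, 4 were above 2 times the median UMIs of the library, against 1 of 27 Dach1 cells. The part of depth or of doublets in the differences was not tested. Cells with Dach1 and no Nos1 had a median of 0.247 (19 cells). Of the 12 leading higher genes, which the P5 values helped to choose, 12 were higher at P5 with 1 Dach1 UMI than with both Dach1 and Lypd1, and 10 were higher with 2 or more UMIs than with 1, Trps1 and Chn2 being the exceptions. Of the 12 leading lower genes, 11 were lower with 1 Dach1 UMI than with both, and Clmp was the exception, at 174 against 131 CPM. The P5 levels of Dach1 and Lypd1 cells helped to choose both sets of genes, which favoured these orders in advance. These orders thus do not show that 1 UMI places a cell, and the same orders over all genes were not counted. Rarb was at 271 CPM in P5 cells with 1 Dach1 UMI, 353 CPM in those with 2 or more, and 26.2 CPM in those with both Dach1 and Lypd1, and Epha4 was at 464, 570 and 144 CPM. Crhbp, lower in Dach1 cells, was at 135 CPM with 1 Dach1 UMI, had 0 UMIs with 2 or more, and was at 288 CPM in cells with both.

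**Figure D4:**
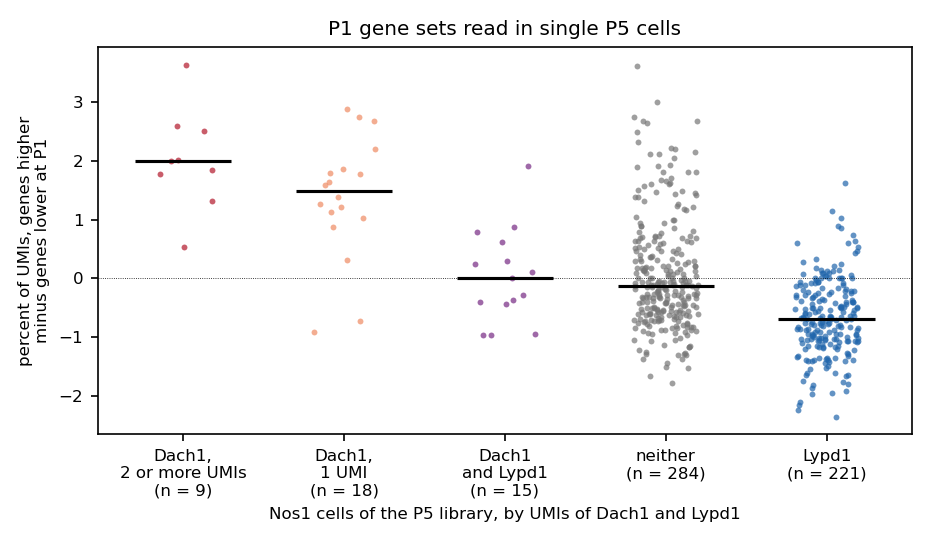
Each point is 1 Nos1 cell of the P5 library, grouped by its UMIs of Dach1 and Lypd1 (horizontal axis), and placed by the percent of its UMIs from the 125 genes higher at P1 minus the percent from the 107 genes lower at P1 (vertical axis); black lines are medians. Medians were 1.99, 1.48, 0, −0.133 and −0.691 from left to right, and some cells with neither gene reached the range of the Dach1 cells.

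Read the other way, the 213 genes higher at P5 made up 2.84% (2.79 to 2.89) of the UMIs of P1 Dach1 cells and 1.61% (1.56 to 1.66) of those of P1 Lypd1 cells, and the 436 lower genes 3.73% (3.67 to 3.79) and 5.04% (4.96 to 5.12). Per cell, the difference of both percentages ran from −4.10 to 0.818 with a median of −0.865 in the 98 P1 Dach1 cells, and from −5.34 to −0.786 with a median of −3.57 in the 55 Lypd1 cells. Of these 213 and 436 genes, 159 (74.6%) and 287 (65.8%) were on the same side at P1. The 22 cells of the E16.5 library that met the rule lie outside the postnatal group. In them the 44 genes higher in both postnatal libraries made up 0.731% of UMIs and the 49 lower genes 0.312%, against 0.352% and 0.561% in the 43 E16.5 Nos1 cells with neither gene and 0.570% and 0.481% in the 98 E16.5 cells with Dach1 and no Nos1. These groups also differed otherwise: 13 of the 67 E16.5 Nos1 cells had the excitatory markers Neurod2 and Neurod6 and no Lhx6, and Xist without a Y-linked UMI was found in 20 of the 22 cells and in 21 of the 43. The part of either in the difference was not tested.

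The Dach1 cells also varied among themselves. For each of 206 genes with at least 50 UMIs in the Dach1 cells of both libraries, the variance of the counts between cells was divided by the variance that counting at the cells' depths would give. The median of this index was 1.28 at P1 and 1.27 at P5, and 17 genes exceeded 2 in both libraries. At equal relative spread this index is larger for more abundant genes, so it does not rank genes by relative spread: Pcdh17, with only 73 and 64 UMIs in all, had an index of 3.33 and 3.12. Npy had the highest index by the lower of both libraries, 39.0 at P1 and 62.2 at P5. It had a median of 161.5 UMIs and a maximum of 504 per cell at P1, and 113 and 428 at P5. Sst had a median of 31.5 UMIs (maximum 121) at P1 and 13 (maximum 56) at P5, with an index of 9.90 and 7.14. Pcp4 was at 0 in 11 of 98 cells at P1 and reached 64 UMIs there, with an index of 6.26, and reached 75 UMIs at P5 with an index of 8.87. The remaining 3 of the 6 genes with the highest index, Malat1, Meg3 and Tmsb4x, are abundant in most neurons, and Tmsb4x reached 323 UMIs in 1 cell at P1 where the median was 17.5. How much of this spread came from free RNA or from damaged cells was not tested.

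Between P1 and P5, which are single libraries processed with different Cell Ranger versions, the levels of the Dach1 cells differed by 2-fold or more in many genes. Of 2067 genes with at least 50 UMIs in Dach1 cells over both libraries, 143 (6.92%) were higher at P5 and 262 (12.7%) lower, with a median log2 ratio of −0.10. Of these, 71 (49.7%) and 118 (45.0%) were also past 2-fold in the same direction in Lypd1 cells, where 5.95% and 9.63% of all 2067 genes were. The gene with the largest ratio was Selenom, a selenoprotein of the endoplasmic reticulum, at 152 CPM (115 to 196) at P1 and 1174 CPM (959 to 1423) at P5. Mt3, a brain metallothionein, went from 167 to 1005 CPM, Fxyd7, a regulator of the sodium pump, from 120 to 621 CPM, and Hap1, a partner of huntingtin, from 159 to 689 CPM. These were shared with the other cells: in cells without Nos1 the log2 ratios were 2.60 for Selenom, 2.74 for Mt3, 2.33 for Fxyd7 and 1.24 for Hap1, beside 2.87, 2.52, 2.28 and 2.04 in Dach1 cells. Pcdh17 had a log2 ratio of 1.87 in Dach1 cells, 1.16 in Lypd1 cells and 0.43 in cells without Nos1. Arhgdig, Mea1 and AY036118 completed the 8 leading genes, with 2.23, 1.97 and 1.97.

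Among the lower genes, Pabpc1, which binds poly(A) tails, went from 1479 CPM (1360 to 1606) to 181 CPM (103 to 293), with log2 ratios of −2.97 in Dach1 cells, −3.27 in Lypd1 cells and −2.94 in cells without Nos1, and AC160336.1 from 985 to 67.7 CPM. These ratios were of like size in all groups. Arid1a, a subunit of chromatin remodelling complexes, and the zinc-finger gene Thap1 had 60 and 62 UMIs at P1 and 0 at P5. Wdr89 had 50 UMIs at P1 and 0 at P5. Their P1 levels were 4.63-fold, 4.78-fold and 3.86-fold the P5 level of 3 counts, in this order. These ratios leave out the counting error at P1, so they are not lower bounds on the fold. Phlda1 went from 227 to 11.3 CPM (1 UMI), A330069E16Rik from 162 to 11.3 CPM (1 UMI), and Slco3a1, an organic anion transporter, from 410 to 45.2 CPM.

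**Figure D5:**
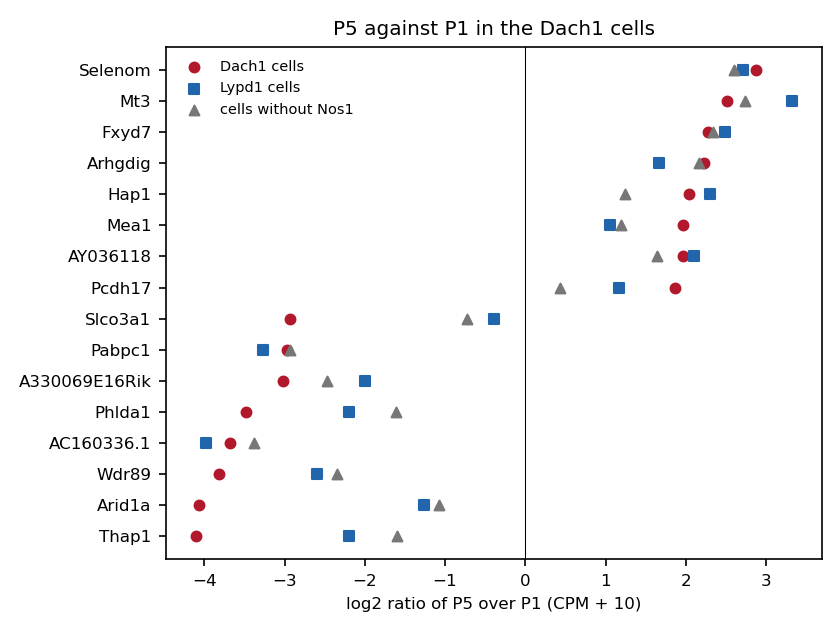
Log2 ratio of P5 over P1 on CPM + 10 (horizontal axis) for the 16 genes named by the rule for stage (vertical axis), in Dach1 cells (circles), Lypd1 cells (squares) and cells without Nos1 (triangles). Ratios of Selenom, Fxyd7, Pabpc1 and AC160336.1 were alike in the 3 groups, whereas Slco3a1 was at −2.93 in Dach1 cells and −0.38 in Lypd1 cells. Dach1 cells held 0 or 1 UMI at P5 for Thap1, Arid1a, Wdr89, Phlda1 and A330069E16Rik.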

How the data were processed

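GFP+ cells from the NCx of SstCre/+;RCEfl/+ mice were sorted and profiled in 1 droplet library per stage. According to the file headers and methods, the authors ran Cell Ranger (3.0.2 for P1, otherwise 3.1.0) on GRCm38 and deposited raw UMI counts, not normalized, for 31053 genes. Free RNA was not removed here, and doublets were handled only by an alternative. Libraries held 25638779, 15654107 and 13429055 UMIs. Genes were placed with GENCODE M21 (30934 of 31053 IDs matched).

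UMIs were summed per cell group and library and divided by the total without mitochondrial, ribosomal and Y-linked genes. Ratios were taken as log2 of CPM with a pseudocount of 10 CPM, which understates changes of low genes, and 2-fold was the limit, without a test. Lists of genes and members were chosen with earlier results of these data known. Named genes were the 12 highest and 12 lowest by the library nearer 0 (same sign, at least 20 UMIs in each library), 10 fixed LRP genes, up to 4 per list plus the most abundant member, 8 and 8 for stage (at least 50 UMIs), 6 for spread, and 8 over cells without Nos1. Plxna2, Cdh11, Pcdh19, Csmd2, Plcb4, Cnih3, Gad1, Slc32a1 and Meis2 were named after their values were seen. Some genes that the rule names are not reported here. Scripts were tested on simulated data. Python 3.11.15, numpy 2.4.6, scipy 1.17.1, pandas 2.3.3, matplotlib 3.10.9, R 4.3.3 and edgeR 4.0.16 (TMM factors only) were used.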

Additional observations from a re-analysis of the deposited data

Results flagged for a closer look

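Slco3a1 had opposite directions in the 2 postnatal libraries, and the difference was not tested. Its log2 ratio of Dach1 over Lypd1 cells was 1.38 at P1, from 157 and 43 UMIs, and −1.17 at P5, from 4 and 86 UMIs.

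In the E16.5 library, which the comparisons did not use, 90.9% of the cells that met the rule (20 of 22) had Xist and no Y-linked UMI, and 0 of 22 (up to 15.4%) had a Y-linked UMI and no Xist. Among E16.5 cells without Nos1 these shares were 42.5% and 35.8%.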

How the results depend on the processing

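No paired analysis was possible because each stage was 1 library and the labels give no replicate numbers shared between groups; leaving out a library is the reading of 1 library alone. Requiring 2 Dach1 UMIs left 50 cells, and requiring 2 UMIs of the gating gene in both groups gave 43 higher and 62 lower genes, of which 19 and 24 are among the 44 and 49. Stricter limits on genes and mitochondrial UMIs gave 43 and 41, 31 and 22 of them shared. The counts of 44 higher and 49 lower genes became 20 and 16 with a pseudocount of 50 CPM, 73 and 81 with a minimum of 10 UMIs, 14 and 25 with 50 UMIs, 18 and 23 after thinning to 1500 UMIs (9 and 12 of them shared with the 44 and 49), 20 and 93 against Nos1 cells with neither gene (15 and 23 shared), 179 and 127 of 6207 genes at P1 and 255 and 574 of 6404 at P5 when 1 library was read and the minimum of UMIs was applied to it alone. The lower count became 27 without cells above 2 times the median UMIs, and the higher count 18 in cells with a Y-linked UMI and no Xist. These counts are not over the same number of genes. In place of 5525, 3162 genes were tested with 2 UMIs of the gating gene and 3894 with the stricter limits. With minimums of 10 and 50 UMIs 7724 and 2650 were tested, and 2228 after thinning. The number tested is not given here for the reference of Nos1 cells with neither gene. Nor is it given without cells above 2 times the median UMIs or in cells with a Y-linked UMI and no Xist. Counts of these 3 settings therefore cannot be set beside the shares of all genes. The cause of the differences between settings was not tested. TMM factors gave 42 and 52, but moved the median of all genes at P5 from −0.03 to −0.17. Thinning left 48 higher and 63 lower genes of 548 between P5 and P1. Of 432 values of the 24 leading genes, 392 stayed within the counting interval of the main fold and 38 moved outside it. A further 2 changed sign: Sv2b reached 0.50 without cells above 2 times the median UMIs, and Pcdh17 was at −0.53 against Nos1 cells with neither gene. Many of the 432 could not change sign. Other minimums of UMIs and a limit on the logarithm of total UMIs left these ratios as they were. In 1 library alone the sign was fixed by the choice of genes. Cells with Xist and no Y-linked UMI were too few to give a value.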

Other observations

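Scg2, which encodes the secretory granule protein secretogranin II, was alike in both groups at P1, at 162 CPM in Dach1 cells and 131 CPM in Lypd1 cells, and differed at P5, at 282 CPM (183 to 417) and 43.7 CPM. Ddah2, which breaks down an inhibitor of nitric oxide synthases, was at 83.6 and 67.1 CPM at P1 and at 294 CPM (192 to 430) and 94.0 CPM at P5. Lypd6, a further relative of Lypd1, was at 28.7 and 42.4 CPM at P1 and at 22.6 (2 UMIs) and 140 CPM at P5. Whether these ratios differ between the libraries was not tested.

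A330069E16Rik was at 162 CPM in P1 Dach1 cells and 45.9 CPM in Lypd1 cells, with its 62 UMIs in 9 of 98 Dach1 cells.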
